A study of Mus musculus with 2 samples.

Results

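The epidermal growth factor (EGF) family genes described here are 7 ligand genes (Hbegf, Areg, Ereg, Btc, Egf, Tgfa and Nrg1) and 3 receptor genes (Egfr, Erbb2 and Erbb3), taken by gene symbol with every probe that carries it. Of these 10 genes, 7 had a named probe, 6 ligands and 1 receptor, with 11 probes in all, out of 16590 genes named by 23978 of the 25697 probes. Areg, Erbb2 and Erbb3 were not analysed here. The cells were sorted for green fluorescence from S100A4-GFP transgenic BALB/c mice, in which the reporter marks S100A4+ cells, and total RNA was measured on Illumina bead arrays. Cells of 1 group came from metastatic lung, in transgenic mice that bore tumours of the mammary carcinoma line 4T1, and cells of the other from normal lung of transgenic mice with no tumour stated. The transgene is shared by both groups. The labels state neither age nor sex, nor how many animals each array stands for.

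Each group had 1 array, so no difference below was tested, no p-value was computed for a difference, and the condition cannot be told apart from the array, the sort or the amplification. Precision is limited by this number of arrays. Values are probe signals, the non-normalized intensities in linear units, each with a detection p-value that ranks the probe against the array's background. A probe is called detected where that p was below 0.01. Ratios are metastatic over normal lung on a log2 scale, after background correction and quantile normalization with an offset of 16 that shrinks the ratios of dim probes.

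EGF family ligands are made as membrane-anchored precursors, and metalloproteases cut most of them free. They bind ErbB receptor tyrosine kinases, which pair and signal through the Ras-MAP kinase and phosphoinositide 3-kinase routes. Heparin-binding EGF-like growth factor (Hbegf) binds the EGF receptor and ErbB4, whereas neuregulin 1 (Nrg1) binds ErbB3 and ErbB4. In lung the family is known for epithelial growth and repair.

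Hbegf and Nrg1 were the detected members, and both were higher in the S100A4+ cells of metastatic lung. Hbegf had a signal of 546 in metastatic-lung cells, against 211 in normal-lung cells. Nrg1 had a signal of 344 in metastatic-lung cells, against 93.7 in normal-lung cells. The log2 ratio was 1.54 (2.92-fold) for Hbegf and 2.61 (6.11-fold) for Nrg1. In these bulk samples, a change in the number of expressing cells and a change in RNA per cell cannot be told apart.

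**Figure D1:**
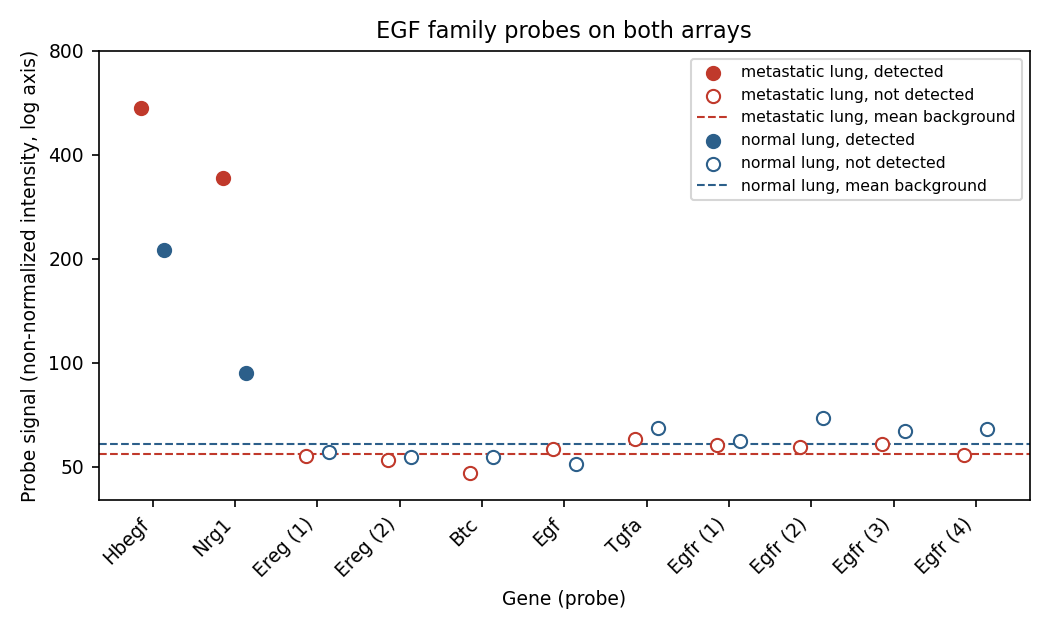
Probe signal (vertical log axis, non-normalized intensity) of the 11 EGF family probes in metastatic-lung (left of each pair) and normal-lung cells, with filled points for detected probes and dashed lines at each array's mean background. Hbegf and Nrg1 stand above background on both arrays and are higher in metastatic lung, and the other 9 probes lie near the background lines.

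Both genes were read by 1 probe each (ILMN_2698449 for Hbegf and ILMN_2971688 for Nrg1), so no further probe checks either ratio, and other Nrg1 transcripts were not measured separately. Hbegf lay 64.96 background SDs above the mean background on the metastatic-lung array and 21.8 on the normal-lung array. Nrg1 lay 38.2 background SDs above it on the metastatic-lung array and 5.04 on the normal-lung array. The normal-lung signal of Nrg1 was thus the nearest to background of these 4 signals, and its fold depended on how background was treated. In the authors' processed values, which keep a constant in the signal, Nrg1 was 3.23-fold higher, against 6.11-fold after background correction. Hbegf was 2.30-fold higher in the processed values, against 2.92-fold after background correction. Both genes stayed at least 2-fold higher under each of the 8 alternative settings in which they were computed.

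As a scale for differences between probes of the same gene, 1648 genes had a further probe detected on both arrays. The log2 ratios of such probes differed with an SD of 0.25 per probe. The log2 ratios of Hbegf and Nrg1 were larger than that spread, which covers neither animals, sort, amplification nor error shared by a whole array. It was pooled over all such probes and not taken apart for dim ones, such as Nrg1 in normal-lung cells. Among the 6904 genes detected on both arrays, the ratio of Nrg1 ranked 15 from the top and that of Hbegf ranked 89. Of the 7 measured members, 2 were higher by 2-fold or more and 0 were lower by as much, where 2.89% of all named genes were higher and 4.98% lower by this measure. Among genes detected on at least 1 array, 5.89% were higher and 10.2% lower, and of the 2 detected members 2 were higher.

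**Figure D2:**
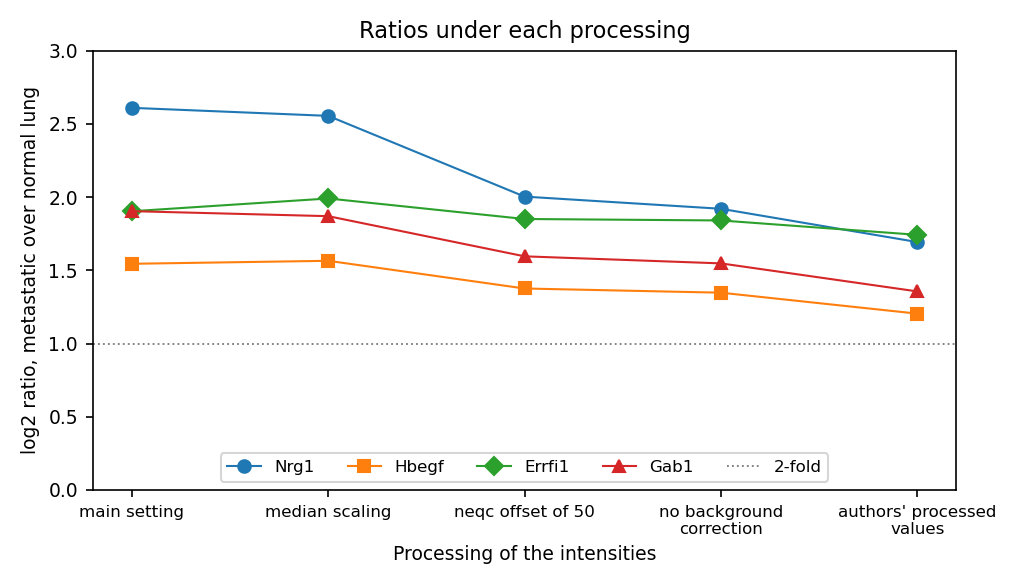
Log2 ratio, metastatic over normal lung (vertical axis), of Nrg1, Hbegf, Errfi1 and Gab1 under the main setting and 4 other ways of processing the intensities. Every point lies above the dotted 2-fold line, and Nrg1 moves most, between 2.61 and 1.69.

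The remaining ligands were not detected on either array. Ereg (epiregulin) was read by 2 probes, with signals of 53.8 and 52.4 in metastatic-lung cells and 55.3 and 53.5 in normal-lung cells. Btc (betacellulin) had a signal of 48.0 in metastatic-lung cells and 53.3 in normal-lung cells. Egf, the founding ligand, had 56.4 in metastatic-lung cells and 51.0 in normal-lung cells. Tgfa (transforming growth factor alpha) had 60.1 in metastatic-lung cells and 64.7 in normal-lung cells. These signals lay around the mean background of 54.5 on the metastatic-lung array and 58.3 on the normal-lung array, so no ratio is given for them.

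The receptor Egfr, through which Hbegf, Ereg, Btc, Egf and Tgfa can all signal, was read by 4 probes, none of them detected on either array. Their signals were 57.8, 57.2, 58.1 and 54.0 in metastatic-lung cells, against 59.5, 69.2, 63.4 and 64.4 in normal-lung cells. The lowest detection p of an Egfr probe was 0.211 in metastatic-lung cells and 0.0589 in normal-lung cells. Egfr was therefore not detectable at the sensitivity of these arrays, which does not show that it is absent. Detection on at least 1 array was reached by 2 of 7 members, against 49% of all named genes.

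Of 5 further family genes, Epgn, Nrg3 and Nrg4 had a probe, and none was detected on either array. Epgn (epigen, an Egfr ligand) had a signal of 64.4 in metastatic-lung cells and 73.5 in normal-lung cells. Nrg4, a ligand of ErbB4, had 63.0 in metastatic-lung cells and 75.5 in normal-lung cells. Their detection p on the normal-lung array, 0.0276 and 0.0201, was below a looser threshold of 0.05 but not below 0.01. Nrg3 had 47.0 in metastatic-lung cells and 53.6 in normal-lung cells. Nrg2 and the receptor Erbb4 were not analysed here.

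The genes that release and process the ligands differed in both directions. Of 18 such genes 15 had a probe and 13 were detected on at least 1 array. By 2-fold or more, 1 was higher and 3 were lower. The other 9 differed less, 69.2% of the detected genes of the list, beside 83.9% of all detected genes. The median log2 ratio was 0.15 beside 0.014 over all 8128 detected genes. Adam17, the main sheddase of Hbegf and Tgfa, had a signal of 4191 in metastatic-lung cells and 3392 in normal-lung cells (log2 ratio 0.15). Adam9, which also can cut Hbegf, had 633 in metastatic-lung cells and 352 in normal-lung cells (log2 ratio 0.84). Furin, a proprotein convertase, had 1061 in metastatic-lung cells and 620 in normal-lung cells (log2 ratio 0.70).

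Adam8, a metalloprotease of myeloid cells, was the higher gene of this list. It was detected in metastatic-lung cells only, with a signal of 142 against 77.6 in normal-lung cells, at least 2.78-fold higher. For such a bound, here and below, the value on the array where the gene was not detected was raised to the lowest value of any detected probe on that array. Each bound holds only for values after background correction. A further Adam8 probe gave signals of 144 in metastatic-lung cells and 69.3 in normal-lung cells. The log2 ratio of Adam8 was below the 2-fold line without background correction (0.98) and in the authors' processed values (0.85). The 3 lower genes were Cd9, Timp3 and Adam19. Cd9, a tetraspanin that associates with membrane-anchored Hbegf, had 115 in metastatic-lung cells and 292 in normal-lung cells, 3.21-fold lower. Timp3, an inhibitor of Adam17, had 646 in metastatic-lung cells and 1562 in normal-lung cells, 2.74-fold lower. Adam19, a protease able to cut neuregulin in cultured cells, had 305 in metastatic-lung cells and 700.5 in normal-lung cells, 2.61-fold lower.

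Among adaptors and signal transducers of the receptors, Gab1 and Eps8 were higher and Nck2 lower by 2-fold or more. Of 34 genes 27 had a probe and 21 were detected, all on both arrays, and the other 18 lay in between (median log2 ratio 0.12). That is 85.7% of the detected genes of the list, near the 83.9% of all detected genes that lay in between. Gab1, a docking protein that links ErbB receptors to phosphoinositide 3-kinase, had a signal of 402 in metastatic-lung cells and 141 in normal-lung cells, 3.74-fold higher. Eps8, an EGF receptor substrate that acts on the actin cytoskeleton, had 167 in metastatic-lung cells and 107 in normal-lung cells, 2.07-fold higher, close to the threshold. Its log2 ratio was between 0.61 and 0.97, under 2-fold, in 4 of the alternative settings. Nck2, an SH2 and SH3 adaptor, had 311 in metastatic-lung cells and 831 in normal-lung cells, 3.08-fold lower. Shc1 and Grb2, the adaptors that connect the receptors to Ras, had log2 ratios of -0.019 and 0.23.

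Among genes that dampen receptor signalling, Errfi1 stood at the top. Errfi1 (Mig6) binds the kinase domains of EGF receptors and blocks them, and is itself induced by growth factors and stress. Its signal was 2582 in metastatic-lung cells and 674 in normal-lung cells, a log2 ratio of 1.90 (3.74-fold higher). Socs3, a feedback inhibitor of cytokine receptors, had 1427 in metastatic-lung cells and 710.2 in normal-lung cells (log2 ratio 0.93), and Ptpn1, a tyrosine phosphatase of the receptor, had a log2 ratio of 0.71. Spred2, an inhibitor of Ras signalling, had 242 in metastatic-lung cells and 507.5 in normal-lung cells, 2.36-fold lower. Over the list, 24 of 26 genes had a probe and 18 were detected (median log2 ratio 0.26). By 2-fold or more, 1 was higher and 1 lower. The other 16 lay in between, 88.9% of the detected genes of the list, beside 83.9% of all detected genes. On its brightest probe, the ERK phosphatase gene Dusp6 had a log2 ratio of -0.64.

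The start-site windows of Errfi1 and Gab1 are shown because these were the pathway genes on both arrays with the largest ratios upward, so the windows and the motifs were chosen after values were seen. RefSeq's table for GRCm38.p6 gives 250 bases before and 50 bases after each start, and 6 of the 10 members had a window there. Capitals mark matches to any of 6 motifs searched on both strands: AP-1 (TGANTCA), the cAMP response element (TGACGTCA), its shorter core (TGACG), EGR (GCGNGGGCG), and the NF-kB and CArG motifs.
Errfi1, chr4:150854820-150855119, plus strand: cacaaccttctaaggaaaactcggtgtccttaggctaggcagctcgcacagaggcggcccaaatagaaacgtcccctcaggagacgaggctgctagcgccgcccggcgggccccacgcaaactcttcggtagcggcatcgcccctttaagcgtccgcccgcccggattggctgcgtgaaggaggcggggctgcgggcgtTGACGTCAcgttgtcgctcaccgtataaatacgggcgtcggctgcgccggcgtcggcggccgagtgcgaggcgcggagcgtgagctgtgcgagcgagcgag
Gab1, chr8:80880470-80880769, minus strand: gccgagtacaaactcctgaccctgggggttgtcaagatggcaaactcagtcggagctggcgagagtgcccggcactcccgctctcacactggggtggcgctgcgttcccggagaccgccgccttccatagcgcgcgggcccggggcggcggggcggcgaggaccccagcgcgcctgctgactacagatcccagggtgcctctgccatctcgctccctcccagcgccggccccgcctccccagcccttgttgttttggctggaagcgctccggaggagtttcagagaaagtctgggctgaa
The Errfi1 window held a cAMP response element, a palindrome, beginning 51 bases before the start, and that element is found in 1.79% of all 32851 windows. Each strand of the element also holds that core, found in 20.8% of all windows. The further Errfi1 window of the table, and both overlapping Gab1 windows, held none of the 6 motifs. AP-1 was found in 7.81% of all windows, EGR in 5.55%, NF-kB in 8.46% and CArG in 1.63%. A match in letters is a description of the sequence and no measurement of binding.

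Immediate early genes, which growth factor and stress signals switch on within minutes, differed in both directions. Of 28 genes 27 had a probe and 24 were detected, with a median log2 ratio of 0.056. By 2-fold or more, 4 were higher and 5 lower. The other 15 lay in between, 62.5% of the detected genes of the list, beside 83.9% of all detected genes. Of the 24, 2 were detected in metastatic-lung cells only and so passed the filter only through the array where they were higher. Among the 22 detected on both arrays, 3 were higher and 5 lower, beside 5.07% and 7.02% of all such genes. Of these 22 ratios 10 were above 0 and 12 below, with a median log2 ratio of -0.13. Ier3 had a signal of 11797 in metastatic-lung cells and 3150.2 in normal-lung cells, 3.33-fold higher. The nuclear receptor gene Nr4a2 had 411 in metastatic-lung cells and 167 in normal-lung cells, 2.99-fold higher. Phlda1 was 2.08-fold higher, and Myc, detected in metastatic-lung cells only, was at least 2.002-fold higher. Both were under 2-fold without background correction, with an offset of 50 and in the authors' processed values, where Phlda1 had a log2 ratio of 0.79 and Myc 0.52. A further Myc probe, not detected on either array, had 62.9 in metastatic-lung cells and 58.8 in normal-lung cells.

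The 5 lower genes all encode transcription factors. Egr1 had a signal of 2708 in metastatic-lung cells and 5873 in normal-lung cells, 2.49-fold lower. Klf2, also abundant in endothelium and lymphocytes, had 154 in metastatic-lung cells and 397 in normal-lung cells, 3.08-fold lower. Atf3, Nr4a1 and Klf4 were 2.49-fold, 2.23-fold and 2.17-fold lower. The log2 ratio was -0.56 for Fos, -0.97 for Jun and -0.83 for Dusp1. It was 0.79 for Plaur, 0.77 for Nr4a3 and 0.76 for Dusp2. Over the 24 detected genes of the list, 12 ratios were above 0 and 12 below.

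**Figure D3:**
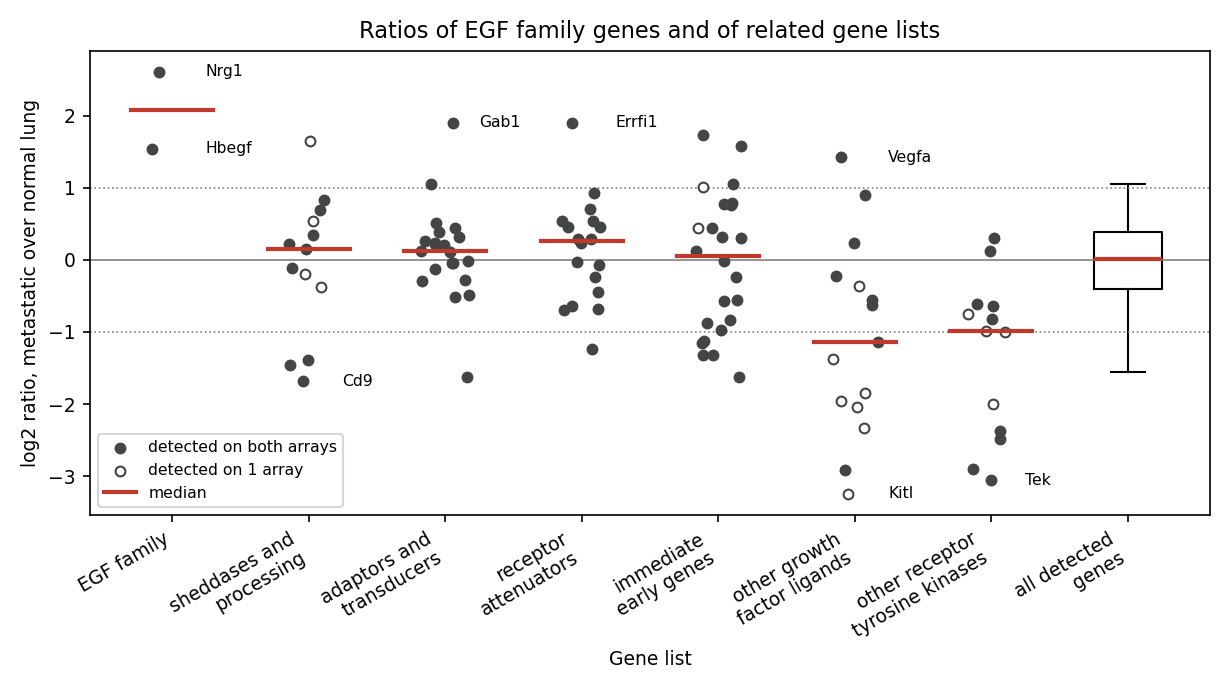
Log2 ratio, metastatic over normal lung (vertical axis), of the detected genes of each list, with filled points for genes detected on both arrays, open points for genes detected on 1 array, red lines at list medians and dotted lines at 2-fold. The box covers the middle 50% of all 8128 detected genes with whiskers at the 5th and 95th percentiles. The EGF family median of 2.08 rests on Hbegf and Nrg1.

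Other growth factor ligands differed in both directions in the same comparison. Of 28 ligand genes 27 had a probe and 15 were detected, of which 7 in normal-lung cells only, so that those 7 passed the filter only through the array where they were higher. Among the 8 ligands detected on both arrays, 1 was higher and 2 lower by 2-fold or more, where 5.07% of all genes detected on both arrays were higher and 7.02% lower. Of these 8 ratios 3 were above 0 and 5 below, with a median log2 ratio of -0.39 (0.047 over all such genes). With the 7 included, 1 was higher and 8 lower, and the median was -1.14, or -0.62 with those genes at their bounds, and -0.11 over all 27 with no filter. The higher ligand was Vegfa, with a log2 ratio of 1.43. Kitl, the ligand of the Kit receptor, had a signal of 73.8 in metastatic-lung cells, where it was not detected, and 384 in normal-lung cells, at least 8.48-fold lower after background correction. Igf1, insulin-like growth factor 1, was 7.53-fold lower, Pdgfb at least 2.92-fold and Tgfb2 at least 2.85-fold in that setting. These sizes were smaller where a larger constant stayed in the signals. In the authors' processed values the log2 ratio was -2.04 for Kitl, -2.03 for Igf1, -1.07 for Tgfb2 and -0.96, under 2-fold, for Pdgfb. Without background correction it was -2.33 for Kitl and -2.24 for Igf1. A further Kitl probe, detected on neither array, had 54.2 in metastatic-lung cells and 72.5 in normal-lung cells (log2 ratio -0.44). A further Pdgfb probe, also detected on neither array, had 57.2 in metastatic-lung cells and 55.4 in normal-lung cells (log2 ratio 0.15). Osm, encoding the cytokine oncostatin M, had a log2 ratio of 0.90.

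Of 30 other receptor kinase genes 27 had a probe and 13 were detected, of which 4 in normal-lung cells only. Among the 9 detected on both arrays, 0 were higher and 4 lower by 2-fold or more, and the median log2 ratio was -0.82. Of all genes detected on both arrays, 5.07% were higher and 7.02% lower by as much. Over all 13, 5 were lower and the median was -0.99, or -0.73 at bounds. Tek, the angiopoietin receptor, was 8.31-fold lower, Axl, a receptor for Gas6, 7.45-fold, Flt1, a VEGF receptor, 5.61-fold and Pdgfra 5.21-fold. In the authors' processed values the log2 ratio was -2.38 for Tek, -1.55 for Flt1 and -1.67 for Pdgfra, against -3.05, -2.49 and -2.38 after background correction. The difference between these lists and the EGF family was not tested.

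By normalized value on both arrays together, the genes nearest to Hbegf were Tfec, Jak2 and Kbtbd7, at distances of 0.045, 0.10 and 0.18 log2 units. The nearest to Nrg1 were Stfa1 and Cstdc6, at 0.23 and 0.24, and Map2k3, at 0.38. Stfa1 and Cstdc6 are near-identical stefin genes. Likeness over 2 arrays says no more than that these genes had similar values on both.

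S100a4, the gene whose reporter was sorted on, had a signal of 1122 in metastatic-lung cells and 743 in normal-lung cells (log2 ratio 0.51). The labels call the cells stromal, and their RNA held markers of several cell types. Neutrophil and granulocyte precursor markers differed in both directions, with a higher summed level in metastatic-lung cells. Of these 16 genes, 15 were detected in metastatic-lung cells and 11 in normal-lung cells. Among the 11 detected on both arrays, 6 were at least 2-fold higher and 0 lower by as much, and the other 4 were detected in metastatic-lung cells only. Over all genes detected on both arrays, 5.07% were higher and 7.02% lower. Their summed level, in linear normalized units, was 10108 in metastatic-lung cells and 4893 in normal-lung cells. Of the 3 brightest, S100a9 had a signal of 1542 in metastatic-lung cells and 2522 in normal-lung cells, 1.80-fold lower. S100a8 was 2.18-fold and Retnlg 1.90-fold higher. The granule protein genes Mpo and Ctsg, detected in metastatic-lung cells only, were at least 51.3-fold and at least 17.3-fold higher after background correction. Their signals were 2055 and 721 in metastatic-lung cells, against 67.2 and 54.2 in normal-lung cells. The receptor genes Cxcr2 and Csf3r had log2 ratios of -0.23 and 0.097. Eosinophil markers summed to 525 in metastatic-lung cells and 303 in normal-lung cells over 5 genes, of which Epx, Ccr3 and Il5ra were detected on neither array. The detected markers went in opposite directions. Prg2, detected in metastatic-lung cells only, was at least 11.3-fold higher after background correction. Its signal was 477 in metastatic-lung cells and 80.8 in normal-lung cells. Siglecf, also on the monocyte and macrophage list, was 3.08-fold lower. Mast cell and basophil markers summed to 3743 in metastatic-lung cells and 3216 in normal-lung cells over 10 genes. Of the 3 brightest, Hdc had a log2 ratio of 0.27, Mcpt8 was 3.72-fold higher and Gata2 was 2.50-fold lower.

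Monocyte and macrophage markers were abundant on both arrays, with all 11 measured genes detected on each. Of these, 2 were higher and 5 lower by 2-fold or more, beside 5.07% and 7.02% of all genes detected on both arrays. The list summed to 9042 in metastatic-lung cells and 13271 in normal-lung cells, a gap in which Chil3 weighs heavily. Chil3 had a signal of 1137 in metastatic-lung cells and 5414 in normal-lung cells, 5.72-fold lower. The other lower genes were Cx3cr1 (4.44-fold), Mrc1 (3.46-fold), Siglecf (3.08-fold) and Marco (2.58-fold). The 2 higher genes were Cd14 (4.56-fold) and F13a1 (4.32-fold). Lyz2 and Adgre1, also among the brightest, had log2 ratios of 0.042 and -0.30. Endothelial markers summed to 443 in metastatic-lung cells and 4647 in normal-lung cells. All 5 endothelial genes detected on both arrays were at least 2-fold lower, beside 7.02% of all genes detected on both arrays. Fibroblast and mural markers summed to 744 in metastatic-lung cells and 2927 in normal-lung cells, and Col1a1, Lum, Pdgfrb and Tcf21 were detected on neither array. Of the 3 brightest, Thy1 and Inmt were 4.31-fold and 5.95-fold lower, and Acta2 had a log2 ratio of 0.091. T and NK cell markers summed to 314 in metastatic-lung cells and 1296 in normal-lung cells, dendritic cell markers to 1957 in metastatic-lung cells and 5929 in normal-lung cells, and mesothelial markers to 113 in metastatic-lung cells and 475 in normal-lung cells. The part of any of these cell types in the Hbegf and Nrg1 ratios was not tested.

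Epithelial and carcinoma markers, which would mark lung epithelium or 4T1 cells, summed to 4119 in metastatic-lung cells and 8421 in normal-lung cells over 17 genes. The list mixes lung epithelial genes such as Scgb1a1 and Sftpc with general epithelial genes, so its sum does not follow 4T1 cells alone. Scgb1a1 was 1.62-fold and Sftpc 2.36-fold lower. Of the 9 detected on both arrays, 0 were higher and 5 lower by 2-fold or more, beside 5.07% and 7.02% of all genes detected on both arrays. Krt5, Krt14, Cldn3, Cldn4 and Sftpb were detected on neither array. Cdh1 (E-cadherin) had a signal of 1326 in metastatic-lung cells and 2144 in normal-lung cells, and Krt8 had 85.6 in metastatic-lung cells and 90.6 in normal-lung cells. The log2 ratio was -0.82 for Cdh1, 0.093 for Krt8 and 0.066 for Cldn7. Krt18, detected in metastatic-lung cells only, was at least 1.30-fold higher. Krt19, detected in normal-lung cells only, was at least 1.61-fold lower.

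**Figure D4:**
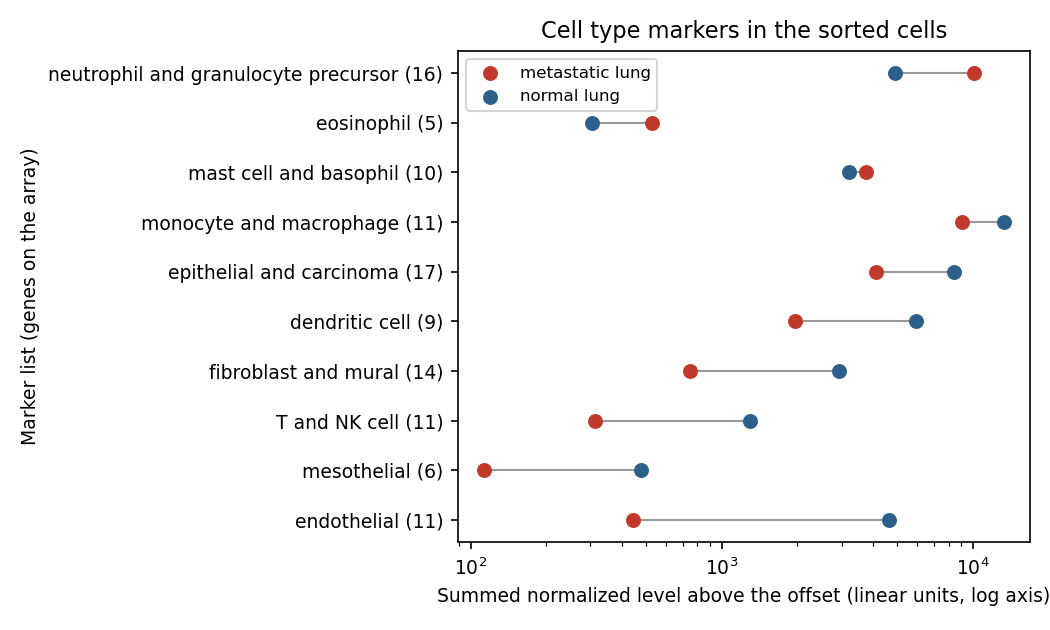
Summed normalized level above the offset (horizontal log axis, linear units) of each cell type marker list in metastatic-lung and normal-lung cells, with the number of genes on the array in brackets. The sum of neutrophil and granulocyte precursor markers is higher in metastatic lung, and endothelial markers show the widest gap in the other direction, 443 against 4647.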

How the data were processed

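Total RNA of sorted S100A4+ cells was measured with 1 array per group. Per the labels, a Qiagen micro-scale kit was used for extraction and a NuGEN WT-Ovation Pico kit for amplification and labelling. The authors deposited a non-normalized intensity and a detection p-value for each probe, so named per the file headers. The submitters' processing notes name BeadStudio, with no version. A further deposited table holds processed intensity values, each a straight line of the same array's non-normalized intensity (slopes 0.942 and 1.08, constants 33.8 and 9.31 for metastatic and normal lung). The medians of its columns were 96.0 and 87.2. Its scale is linear and not centred, its method is unknown, and it was used as an alternative.

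Intensities were background-corrected and quantile-normalized with neqc (limma 3.58.1, R 4.3.3; offset 16). Detection p below 0.01 was reached by 40.9% of probes in metastatic and 42.6% in normal lung. Symbols came from a platform annotation of 2016, updated through RefSeq genes of GRCm38.p6: 23962 probes by gene identifier, 9 by accession, 7 unchanged from the platform, and 1719 of 25697 stayed unnamed. Each gene was read by the probe with the highest mean normalized value. The procedure was run on simulated arrays with changes well above 2-fold, planted in bright probes only. That run did not examine changes close to 2-fold or probes near background. Python 3.11.15, pandas 2.3.3, numpy 2.4.6 and matplotlib 3.10.9 were used.

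The named genes are all members and further family genes, and up to 4 with the largest ratio in each list. The 3 genes nearest each member are also named. Up to 3 brightest markers are named for each cell type except T and NK, dendritic, endothelial and mesothelial cells. Other genes named, Adam17, Adam9, Furin, Shc1, Grb2, Dusp6, Phlda1, Myc, Atf3, Nr4a1, Klf4, Fos, Jun, Dusp1, Vegfa, Osm, Mpo, Ctsg, Cxcr2, Csf3r, Cd14, F13a1, Krt8, Krt18, Krt19, Cldn7 and the undetected markers, were chosen after their values were seen. So were Plaur, Nr4a3, Dusp2, Cx3cr1, Mrc1 and Marco. Members and lists were chosen with earlier results of these data known. The 8 alternatives concerned background, offset, scaling, processed values, detection and the probe rule.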

Additional observations from a re-analysis of the deposited data

How the results depend on the processing

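Hbegf and Nrg1 kept their direction and stayed at least 2-fold higher in metastatic-lung cells under the 4 alternatives that change the intensities. The alternatives on detection and the probe rule could not move these ratios, because each gene had 1 probe, detected on both arrays. Under any of the 8 alternatives, 0 members were at least 2-fold lower. Without background correction the log2 ratio of Nrg1 was 1.92, with an offset of 50 it was 2.004 and in the authors' processed values 1.69, where that of Hbegf was 1.20. The median of both was 1.63, 1.69 and 1.45 in these settings, which leave a larger constant in the signals. With no filter on detection all 7 measured members count, and the median was 0.058 over members and 0.13 over ligands. No receptor was detected, so no median of receptors is given. Without a filter the brightest Egfr probe had a log2 ratio of -0.23. The other Egfr probes had 0.082, -0.011 and -0.16, all from signals not detected. The medians of the other growth factor ligands and other receptor tyrosine kinases moved to -0.78 and -0.57 without background correction, -0.70 and -0.58 with an offset of 50, -0.48 and -0.53 in the authors' values, and -0.11 and -0.31 with no filter. For those ligands it was -0.59 at a detection p of 0.05 and -0.39 with detection on both arrays. Over all genes, 479 higher and 826 lower genes became 210 and 492 without background correction, 239 and 513 with an offset of 50, and 159 and 422 in the authors' values, and 485 were lower with detection on both arrays. Immediate early genes higher by 2-fold fell to 2, against 4, without background correction, with an offset of 50 and in the authors' values. Higher adaptors fell to 1, against 2, in those settings and with median scaling, and higher sheddases to 0, against 1, without background correction, in the authors' values and with detection on both arrays. Lower other ligands fell to 3, against 8, in the authors' values and 2 with detection on both arrays. Median scaling gave 2 higher other ligands, against 1, adding Osm, and 2 higher attenuators, against 1, adding Socs3. Of 315 values of named list genes 269 moved by less than the probe spread, 46 moved by more and 0 reversed. The 269 include values that could not move, because settings on detection leave the ratio of a gene detected on both arrays unchanged. That count therefore overstates how stable the ratios are. No paired analysis was possible because each group had 1 array.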
